A study of Mus musculus with 8 samples.

Results

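The genes described here are 5 matrix metalloproteinases (*Mmp9*, *Mmp8*, *Mmp25*, *Mmp14* and *Mmp12*) and 3 tissue inhibitors of metalloproteinases (*Timp1*, *Timp2* and *Timp3*), found by symbol among the 32285 genes measured. All 8 were detected. RNA was read by droplet single-cell sequencing, from the 5′ end of transcripts, in cells sorted from mouse brain as CD45.2+, a sort for immune cells, after perfusion. There were 8 libraries, 1 for each combination of genotype (WT or App NL-G-F, labelled APP) and treatment (control, acute, chronic or allergy). WT mice were of the C57BL/6J strain. The App NL-G-F line carries a humanised amyloid-β sequence with the Swedish, Arctic and Iberian mutations knocked into the *App* gene in every cell. Control mice drank water, acute colitis mice drank 2% dextran sulfate sodium (DSS) for 1 week, and chronic colitis mice had 3 cycles of 2% DSS followed by water for 5 days each. Food allergy mice were sensitised 3 times with ovalbumin in alum and then given ovalbumin by mouth for 7 days. The labels give an age of 16 weeks for all mice, whereas the methods of the study give a younger age. A CD45 antibody was injected into the blood before perfusion, but the files used here hold no reading of it, so cells in vessels and cells in tissue cannot be told apart.

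Each library pooled mice that had been marked with hashtag antibodies, and no source used here ties a hashtag to a mouse. Between 4877 and 7199 cells per library were kept, with medians of 2782 to 4130 UMIs (counted RNA molecules), and 42382 cells carried at most 1 hashtag and at least 2 markers of their cell type. Levels are given as CPM, which divide the UMIs of a gene by all UMIs of that cell type in that library, on a fixed scale. Hashtag groups fell into 2 sets by 10 immediate-early genes in T cells, from 598 to 1431 CPM in 14 groups and from 2927 to 4838 CPM in 16 groups, and every library held both sets. Gated neutrophils numbered 207 to 1310 per library, and their 8 markers made up 189684 to 315767 CPM. Microglia formed no cluster of their own at the main resolution, and 8 microglia markers, some of which macrophages share, summed to 1304 to 5849 CPM in macrophages.

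Matrix metalloproteinases are zinc enzymes that cut extracellular matrix and other proteins outside the cell. They are made as inactive proenzymes and are opened by other proteases, and the tissue inhibitors block them by filling the active site. Neutrophils store gelatinase (MMP-9) and the neutrophil collagenase (MMP-8) in granules made while the cells mature in the bone marrow. MMP-25 and MMP-14 are anchored in the membrane, and MMP-12 is the elastase of macrophages. TIMP-2 also takes part in the activation of proMMP-2 by MMP-14, TIMP-1 binds proMMP-9, and TIMP-3 is held in the matrix and also blocks ADAM proteases.

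On the mm10 (GRCm38) annotation, *Mmp9* (ENSMUSG00000017737) lies on chromosome 2 from 164940780 to 164955850 on the forward strand. *Mmp12* and *Mmp8* lie 188956 bases apart on chromosome 9 with 2 other protein-coding genes between them, the proteinases *Mmp3* and *Mmp10*. To show how neighbours used by different cells compare, 250 bases before the annotated start are printed for both, and for *Mmp25*, which 3 different cell types used. The sequences are from RefSeq GRCm38.p6, 5′ to 3′ on the strand of the gene, at chr9:7558179-7558428 (forward), chr9:7344147-7344396 (forward) and chr17:23645270-23645519 (reverse). Capitals mark the letters of a C/EBP motif (TTGCNNAA) or a PU.1 motif (GAGGAAGT), each searched on both strands. C/EBP and PU.1 are transcription factors of myeloid cells.
Mmp8: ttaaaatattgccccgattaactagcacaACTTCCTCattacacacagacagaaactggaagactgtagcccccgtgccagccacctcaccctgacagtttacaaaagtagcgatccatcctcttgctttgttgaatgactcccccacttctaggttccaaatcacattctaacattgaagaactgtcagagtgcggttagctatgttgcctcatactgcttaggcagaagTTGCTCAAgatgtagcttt
Mmp12: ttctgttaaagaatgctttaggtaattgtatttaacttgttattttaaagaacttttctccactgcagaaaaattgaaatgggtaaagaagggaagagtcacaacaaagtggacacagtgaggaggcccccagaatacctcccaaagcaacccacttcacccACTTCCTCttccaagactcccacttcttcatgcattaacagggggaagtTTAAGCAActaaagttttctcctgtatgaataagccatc
Mmp25: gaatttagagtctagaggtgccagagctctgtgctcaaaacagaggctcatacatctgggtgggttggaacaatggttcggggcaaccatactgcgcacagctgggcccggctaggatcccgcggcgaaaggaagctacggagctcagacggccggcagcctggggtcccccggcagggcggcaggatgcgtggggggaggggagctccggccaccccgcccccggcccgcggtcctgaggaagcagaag

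The windows of *Mmp8* and *Mmp12* each held 1 C/EBP and 1 PU.1 match, and that of *Mmp25* held neither. Of all 32851 windows of this length, 9.56% held the C/EBP letters and 2.44% the PU.1 letters. The letters of an AP-1 motif (TGANTCA), the motif of the Fos and Jun proteins, were in 6.75% of all windows and in none of the 3 printed. A second annotated start of *Mmp12*, at chr9:7347124-7347373, held 1 AP-1 match 44 bases before the start. The windows of *Mmp14*, *Timp1*, *Timp2* and *Timp3* held none of the 3 motifs. RefSeq windows were at hand for 7 of the 8 genes, all but *Mmp9*.

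*Mmp9* was a neutrophil transcript in these libraries. Its level in neutrophils was 1310 CPM in WT control, 755 in WT acute, 987 in WT chronic and 973 in WT allergy, and 1130 in APP control, 1355 in APP acute, 1516 in APP chronic and 1201 in APP allergy. The mean was 1153 ± 245 CPM (SD, n = 8 libraries) from 47366 UMIs. A UMI of *Mmp9* was found in 85.5% of 5031 neutrophils, against 0.149% of 6727 B cells, whose median depth was 2048 to 2715 UMIs against 2298 to 12473 in neutrophils. With every cell thinned to 1000 UMIs, the shares were 64.6% and 0.0878%. Neutrophils made up 12.2% of the gated cells on average and held 93.5% of the *Mmp9* UMIs. In 7 libraries this share was 93.1 to 98.1%, and in WT acute it was 69.6%, where 207 neutrophils and 417 macrophages were gated and macrophages held another 24.9%.

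Macrophages came next, at 61.4 ± 51.5 CPM (SD, n = 8), with a lowest library of 19.4, a median of 41.2 and a highest of 162 CPM. No library overlapped between neutrophils and macrophages. Basophils and fibroblasts had means of 58.0 and 30.8 CPM that rested on the WT allergy library, at 253 and 139 CPM, where neutrophil markers summed to 28145 CPM in basophils and 29965 CPM in fibroblasts. CD4 T cells had a low level of *Mmp9* in every library, from 9.05 to 23.7 CPM (209 UMIs in 155 of 4196 cells). This was above the *Mmp9* level in B cells (0 to 1.69 CPM) and above the 0.195 to 1.62 CPM expected from free RNA, while neutrophil markers in CD4 T cells summed to 14.6 to 375 CPM. Monocytes, which were the second source of *Mmp8*, had 4 UMIs of *Mmp9* in 1225 cells, and migratory dendritic cells had 1 in 120 cells.

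*Mmp8* was also highest in neutrophils, at 1377 ± 389 CPM (SD, n = 8). The level ran from 652 CPM in WT acute to 2008 CPM in WT control, and 77.5% of neutrophils had a UMI. Monocytes had 213 ± 163 CPM, with a UMI in 54.7% of cells, and every library showed it, from 55.3 CPM in WT acute to 511 in WT control. In the same monocytes *Mmp9* stood at 0 to 1.93 CPM. Neutrophil markers summed to 152 to 5628 CPM in monocytes and were highest in APP control, where *Mmp8* was 403 CPM. Cells named neutrophil precursors, from markers such as *Mpo* and *Elane*, had 33.9 ± 14.5 CPM of *Mmp8*. Monocyte markers summed to 5303 to 7789 CPM in them, beside 6119 to 8926 CPM in monocytes and 1040 to 2128 CPM in neutrophils. Whether they include precursors of monocytes was not tested.

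*Mmp25* was shared by 3 cell types. Migratory dendritic cells had 240 ± 66.9 CPM (SD, n = 3 libraries with at least 20 cells), neutrophils 148 ± 31.4 CPM (n = 8) and gamma-delta T cells 124 ± 18.6 CPM (n = 8). Neutrophil libraries overlapped with both other types, while every migratory dendritic cell library (from 164 CPM) was above every gamma-delta T cell library (to 152 CPM). The next type, group 2 innate lymphoid cells (ILC2), had 11.1 ± 4.28 CPM and overlapped with none of the 3. Gamma-delta T cells held 13.6% of the *Mmp25* UMIs on average and reached 36.5% in WT acute, where neutrophils held 31.5%.

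**Figure D1:**
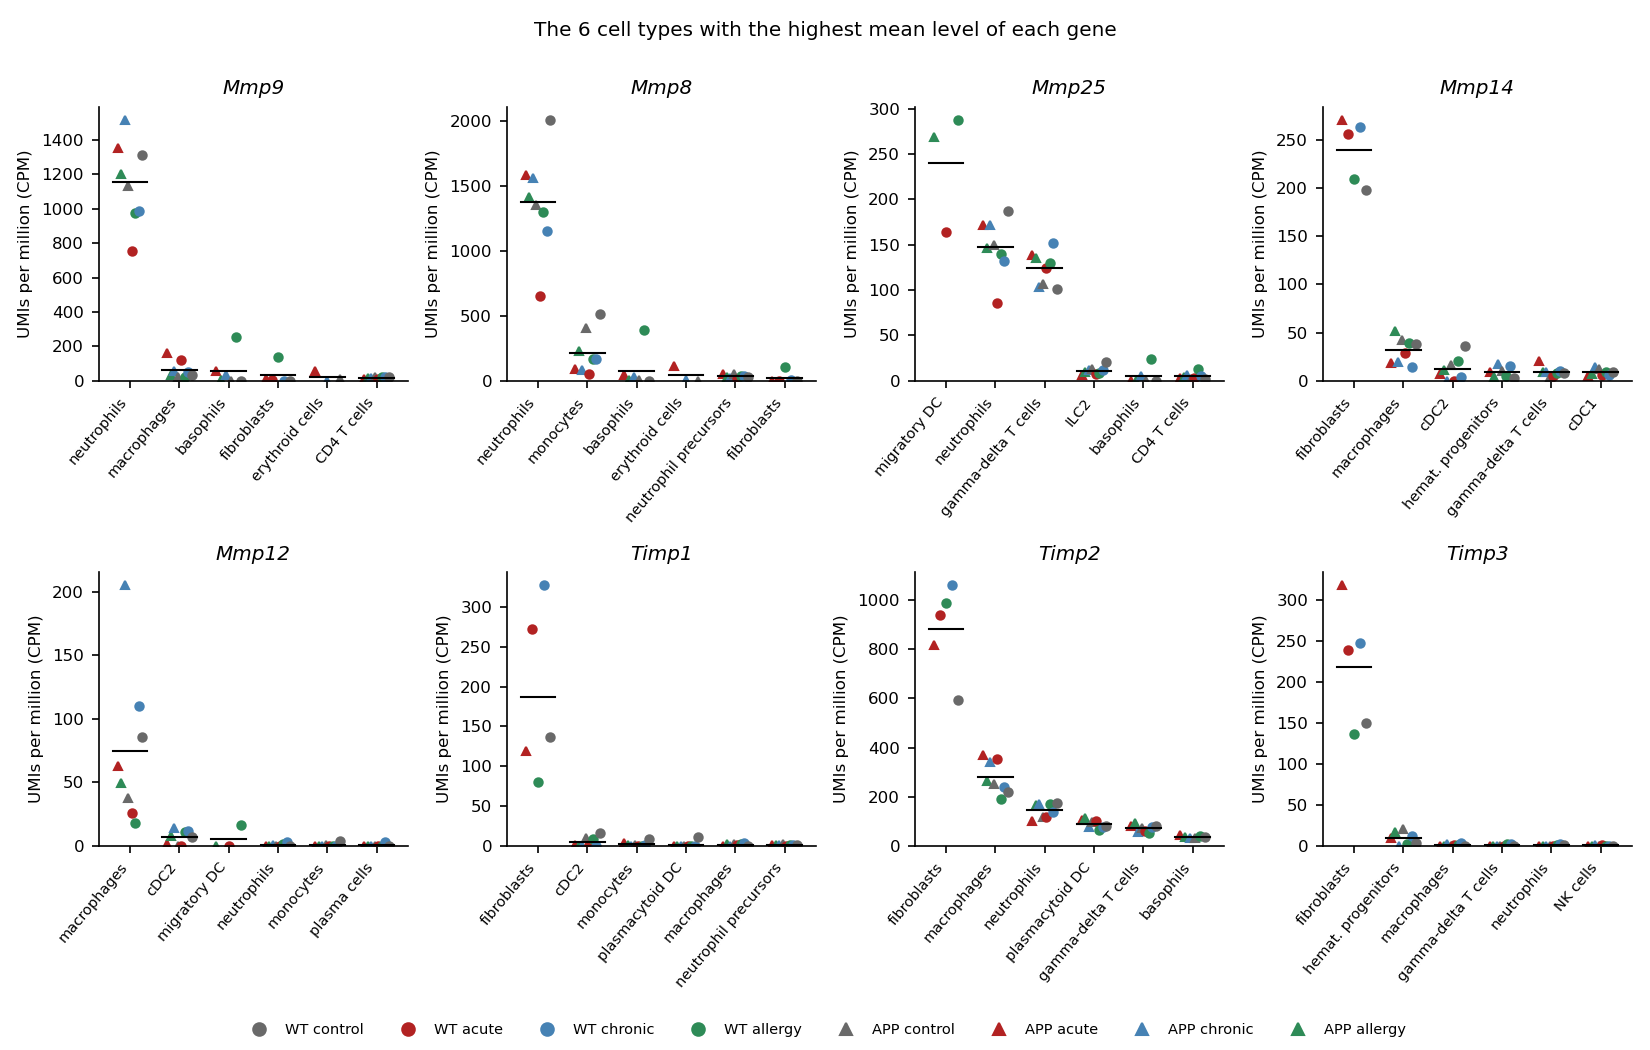
Levels of the 8 genes in the 6 cell types with the highest mean, in CPM on a linear axis that starts at 0 and differs between panels; a point is a library (circles WT, triangles APP, colours for treatment) and the line is the mean over libraries. *Mmp9* and *Mmp8* were highest in neutrophils (means 1153 and 1377 CPM), *Mmp12* in macrophages (74.5 CPM) and *Mmp14*, *Timp1*, *Timp2* and *Timp3* in fibroblasts.

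*Mmp14* and *Mmp12* were found outside neutrophils. *Mmp14* was highest in fibroblasts, at 239 ± 33.3 CPM (SD, n = 5 libraries), with 198 CPM in WT control, 256 in WT acute, 263 in WT chronic, 209 in WT allergy and 271 in APP acute. Macrophages had 31.4 ± 13.3 CPM and neutrophils 14 UMIs in all. *Mmp12* was a macrophage gene, at 74.5 ± 61.2 CPM with a lowest library of 18.3 (WT allergy), a median of 56.1 and a highest of 205 CPM (APP chronic). It came from few cells: 55 of 1605 macrophages had a UMI, 5 of them held 42.7% of the UMIs and the highest cell had 55. Type 2 conventional dendritic cells followed at 6.49 ± 5.56 CPM, below every macrophage library. Fibroblasts and neutrophil precursors had 0 UMIs of *Mmp12*.

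The inhibitors were led by fibroblasts, which were 287 of the gated cells and are not a cell type that a CD45.2+ sort selects. Macrophage markers summed to 4503 to 6385 CPM in fibroblasts, against 29485 to 41056 CPM in macrophages. The part of macrophage RNA in the fibroblast levels, those of *Mmp14* included, was not tested. *Timp2* had 881 ± 183 CPM in fibroblasts, 279 ± 67.8 in macrophages, 144 ± 29.3 in neutrophils, 89.1 ± 17.5 in plasmacytoid dendritic cells and 71.1 ± 14.3 in gamma-delta T cells (SD). The libraries of fibroblasts, macrophages and neutrophils did not overlap, whereas those of neutrophils, plasmacytoid dendritic cells and gamma-delta T cells each overlapped with the next. *Timp2* was the only inhibitor of the 3 at more than 1 CPM on average in neutrophils. Since neutrophils were many, they held 46.5% of all *Timp2* UMIs on average, against 12.1% in fibroblasts.

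*Timp1* in fibroblasts was 137 CPM in WT control, 272 in WT acute, 328 in WT chronic, 79.7 in WT allergy and 119 in APP acute, a mean of 187 ± 107 CPM. *Timp3* in fibroblasts was 218 ± 74.9 CPM, from 137 CPM in WT allergy to 318 in APP acute. In the other named types few UMIs of either were found. Of *Timp1* there were 42 in neutrophil precursors, 29 in type 2 conventional dendritic cells, 24 in monocytes, 7 in macrophages and 2 in neutrophils, and of *Timp3* 14 in neutrophils and 4 in macrophages. Hematopoietic progenitors had 53 UMIs of *Timp3* (8.96 ± 7.66 CPM), of which 5 cells held 49.1%. A cluster of 71 unnamed cells, led by *Ttr*, *Enpp2*, *Kl* and *Folr1* and used in no comparison, had 194 CPM of *Timp3* on 133 UMIs. *Timp1* overlaps the neuronal gene *Syn1*, and *Timp3* overlaps *Syn3*, each on the opposite strand. *Mmp12* likewise overlaps *Mmp1b*, and *Timp2* overlaps *Cep295nl* on the same strand.

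The cell types were then compared within libraries with edgeR, in 1 fit over all gated types with the library as block (13498 genes, adjusted p from edgeR's quasi-likelihood test with Benjamini-Hochberg adjustment over all of them). The libraries differ in genotype and treatment and stand only as repeats of the cell type contrast. The p-values measure the scatter left after levels of type and library are fitted, pooled over all gated types. They do not measure the spread of a single contrast over 8 libraries, and fibroblasts entered with 5. CPM divides by all UMIs of a sum, of which neutrophil markers took a large part, while the fit scales to the bulk of the genes (TMM). Fitted differences of neutrophils are therefore higher than ratios of CPM.

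Against monocytes, neutrophils had more *Mmp9* (log2 fold change 12.19, SE 0.73, adjusted p = 1.24e-31), a value that depends on the 4 UMIs in monocytes. In pooled CPM the ratio was 2685 (95% interval 1049 to 9855, counting error only). *Mmp25* rose by 7.67 (SE 0.28), *Mmp8* by 3.80 (SE 0.34) and *Timp2* by 3.59 (SE 0.17). *Mmp14* (-2.70, SE 0.55) and *Timp1* (-3.19, SE 0.85) were lower in neutrophils, *Timp1* with no call without WT control (-1.56, adjusted p = 0.181) or by DESeq2 (-2.84, adjusted p = 0.191). *Timp3* was called higher (2.20, adjusted p = 0.0354) on 14 against 1 UMIs, and lost the call under 9 of 20 alternatives, with values of 1.47 to 2.16: without WT control, WT acute, WT chronic or APP control, and with order-of-magnitude cell calls, several hashtags kept, 3 markers per cell, no filter on low counts or DESeq2. In all, 5 of the 8 genes were higher and 2 lower, against 32.6% and 27.6% of all genes (60.3% in either direction).

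Against macrophages, 3 genes were higher in neutrophils and 3 lower, against 31% and 37.4% of all genes (68.3% in either direction). Higher were the granule collagenase *Mmp8* (9.57, SE 0.52), *Mmp25* (6.10, SE 0.26) and *Mmp9* (5.46, SE 0.45, adjusted p = 5.74e-22). The pooled CPM of *Mmp9* was 15.8 times that of macrophages (14.4 to 17.3). Lower were *Mmp12* (-5.78, SE 0.46), *Mmp14* (-4.99, SE 0.45) and *Timp1* (-2.42, SE 1.03, adjusted p = 0.0318). The *Timp1* call rested on 2 against 7 UMIs and was lost under 6 of 20 alternatives: without WT allergy (-1.99), APP acute (-2.35) or APP allergy (-2.26), with several hashtags kept (-1.31), in the high set defined above (-2.17) and by DESeq2 (-2.72). The *Mmp12* call was lost by DESeq2 (adjusted p = 0.0604). *Timp2* gave no call (0.25, SE 0.13, adjusted p = 0.0858). It was called higher under 5 of 21 alternatives: order-of-magnitude cell calls (0.77, adjusted p = 9.2e-05), clustering at resolution 1.0 (0.51), cells with several hashtags kept (0.30), and without WT acute (0.31) or APP acute (0.32). Its sign depended on the scaling: pooled CPM was lower in neutrophils (ratio 0.449), and DESeq2 size factors in edgeR gave -0.0176. Those size factors moved the median of all genes in this contrast from -0.15 to -0.41.

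Neutrophil precursors held little of any of the 8 genes except *Mmp8*. Against them, 7 genes were higher in neutrophils and 1 lower, against 37.7% and 37% of all genes (74.6% in either direction). *Mmp9* was higher by 10.47 (SE 0.56, adjusted p = 1.99e-36); 83 of the 109 precursor UMIs came from APP acute, and without that library the difference was 11.72. *Mmp25* (7.77, SE 0.22), *Timp2* (7.04, SE 0.19) and *Mmp8* (6.68, SE 0.39) were higher as well. *Mmp14*, *Timp3* and *Mmp12* were called higher on 14 to 19 neutrophil UMIs, and *Timp1* lower on 2 against 42. *Mmp12* was not called with order-of-magnitude cell calls (1.22, adjusted p = 0.321) or in the low set (1.43, adjusted p = 0.0844), *Timp3* with several hashtags kept (0.97, adjusted p = 0.106) or by DESeq2 (3.56, adjusted p = 0.149), *Mmp14* with every cell of the named clusters (1.30, adjusted p = 0.0914) or in the low set (-0.62, adjusted p = 0.497), and *Timp1* without APP acute (-1.70, adjusted p = 0.0967) or by DESeq2 (-1.93, adjusted p = 0.353). For *Mmp12*, with 0 UMIs in precursors, pooled CPM was at least 7.11-fold higher in neutrophils, against a floor of 3 counts over all precursors.

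Macrophages and monocytes, which share a lineage in part, carried different proteinases. Against monocytes, macrophages had more *Mmp9* (log2 fold change 6.73, SE 0.97, adjusted p = 1.95e-09), *Mmp12* (6.09, SE 0.53), *Timp2* (3.34, SE 0.17), *Mmp14* (2.28, SE 0.36) and *Mmp25* (1.57, SE 0.63, adjusted p = 0.0314), and less *Mmp8* (-5.76, SE 0.54). These are 5 higher and 1 lower of 8, against 26.8% and 19.2% of all genes (45.9% in either direction). The *Mmp25* call, on 27 against 13 UMIs, was lost without WT allergy (1.23), APP acute (1.45), APP chronic (1.29) or APP allergy (1.43), with order-of-magnitude cell calls (0.95), with no filter on low counts and in the low set (-0.38). *Mmp12* lost its call by DESeq2 (adjusted p = 0.184), and *Mmp9*, *Mmp14* and *Mmp8* lost theirs in the low set. Size factors raised the median of all genes in this contrast from 0.17 to 0.37, with 4832 genes higher and 1862 lower in place of 3616 and 2585.

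In fibroblasts against macrophages (5 and 8 libraries), *Timp3* (7.76, SE 0.47), *Timp1* (6.85, SE 0.52), *Mmp14* (2.72, SE 0.31), *Mmp8* (2.18, SE 0.87) and *Timp2* (1.38, SE 0.16) were higher. *Mmp12* was lower, in pooled CPM at least 24.9-fold by the same floor. These are 5 higher and 1 lower of 8, against 26.4% and 22.1% of all genes (48.5% in either direction). Fibroblasts held macrophage markers in every library, at the levels given above. The *Mmp8* call rested on WT allergy, the library with neutrophil markers in fibroblasts. It was also lost with order-of-magnitude cell calls (1.54), the highest Scrublet doublet scores removed (1.13), 3 markers per cell (1.92) or DESeq2 (0.64). Without WT allergy *Mmp8* stood at -2.03 (adjusted p = 0.483), and *Mmp9*, at -1.06 (adjusted p = 0.208) with it, stood at -4.25 (adjusted p = 0.00283).

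**Figure D2:**
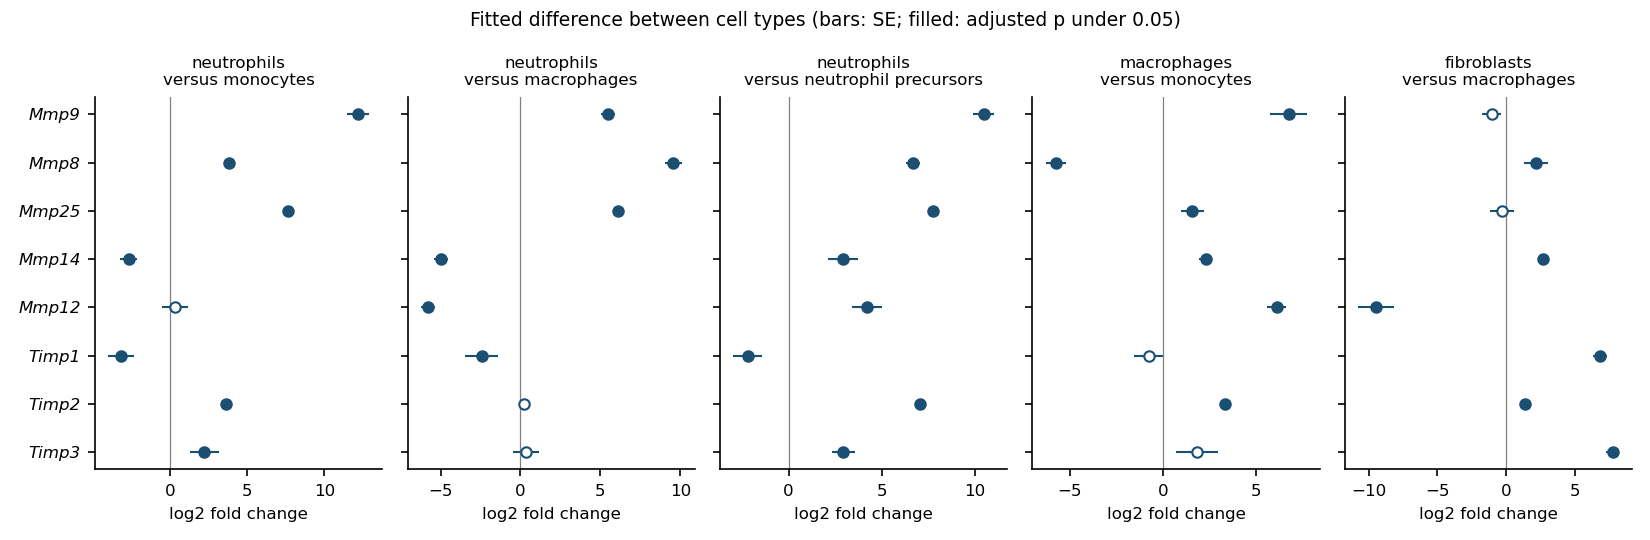
Fitted log2 fold change of each gene in 5 cell type contrasts; points are estimates, bars are 1 SE, filled points passed adjusted p under 0.05 and the grey line marks 0. *Mmp9*, *Mmp8* and *Mmp25* lie to the right in all 3 neutrophil contrasts (*Mmp9* at 12.19, 5.46 and 10.47), and *Timp2* lies near 0 against macrophages, where its sign changed with the scaling.

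Other genes of the same system were followed as lists. Of 5 further inhibitors, 3 were tested, and all were higher in neutrophils than in monocytes, macrophages and precursors. They were *Slpi* (a secreted inhibitor of elastase), *Serpinb1a* (an inhibitor of neutrophil serine proteases) and *Reck* (a membrane inhibitor of metalloproteinases), with log2 fold changes against macrophages of 8.35, 7.64 and 5.92. Of 10 tested genes of activation and docking, 7 were higher and 2 lower in neutrophils than in monocytes. *Lcn2*, whose product binds MMP-9, stood at 7.38, the urokinase receptor *Plaur* at 3.50 and the scavenger receptor *Lrp1*, which takes up MMP-9, at -4.59. The same list had 6 higher and 3 lower against macrophages, 7 and 2 against precursors, 2 and 7 in macrophages against monocytes, and 4 and 4 in fibroblasts against macrophages. Of 8 ADAM and ADAMTS proteases, some of which shed membrane proteins, 3 were higher and 2 lower in neutrophils than in monocytes, 2 and 4 than in macrophages, and 5 and 0 than in precursors. Of all genes, 60.3, 68.3 and 74.6% were called in these 3 neutrophil contrasts, shares near those of the ADAM and ADAMTS list, and 45.9% and 48.5% in macrophages against monocytes and fibroblasts against macrophages. *Adam8* was higher in neutrophils against all 3 types (4.64 to 7.86).

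None of 7 further metalloproteinases tested was higher in neutrophils than in monocytes or macrophages. *Mmp13*, a collagenase, stood at a log2 fold change of -8.15 against macrophages (SE 0.46), and *Mmp2*, the other gelatinase, at -3.13 (SE 0.57). In fibroblasts, 6 of the 7 were higher than in macrophages, led by *Mmp23* (7.08), *Mmp16* (6.89) and *Mmp11* (6.52). The median log2 fold change of the metalloproteinase list was -0.11 for neutrophils against monocytes and 6.22 for fibroblasts against macrophages, beside 0.12 and 0.02 for all genes.

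Within neutrophils, cells were ordered by the share of their UMIs from 4 secondary granule genes (*Ltf*, *Camp*, *Ngp* and *Chil3*), which immature neutrophils make and mature ones lose. The neutrophils were cut into 5 bins of equal size, from a share of 0 to 0.463% in the lowest to 10.8 to 41.2% in the highest. Bins are ranges of a score, not cell types, and median depth rose from 2026.5 UMIs in the lowest to 11391 in the highest. *Mmp9* had a mean of 1203 CPM in the lowest bin, then 1731, 1648 and 1260, and 651 ± 180 CPM in the highest (SD, n = 8 libraries). *Mmp8* followed the same course with 1642, 2653, 2144, 1279 and 530 CPM. Both peaked in the second bin. *Timp2* fell from bin to bin, at 272, 249, 196, 114 and 56.3 CPM, and *Mmp25* peaked in the third, at 101, 191, 211, 149 and 112 CPM. After thinning to 1000 UMIs a cell, the share of cells with *Mmp9* was 64.7, 79.9, 77.6, 66.0 and 43.2%.

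In the fit over bins (4954 genes, library as block), 3 of the 4 members tested were higher in the lowest than in the highest bin, against 29.4% of all genes, and none was lower, against 32.6% (61.9% in either direction). *Timp2* was higher by 1.99 (SE 0.14, adjusted p = 6.95e-17), *Mmp8* by 1.35 (SE 0.15, adjusted p = 2.18e-10) and *Mmp9* by 0.65 (SE 0.12, adjusted p = 5.87e-06). *Mmp9* gave no call with neutrophils clustered at resolution 1.0 (0.16, adjusted p = 0.18). *Mmp25* was not called (-0.29, adjusted p = 0.0887), and its call and sign depended on the setting. It was called lower in the lowest bin under 7 of 22 alternatives, at -0.59 (adjusted p = 0.00214) in the high set, -0.55 with several hashtags kept, -0.51 at resolution 1.0, -0.36 with size factors, -0.35 by DESeq2, -0.34 without WT acute and -0.41 without APP allergy. It was called higher with order-of-magnitude cell calls (0.47, adjusted p = 0.000463). Of the other inhibitors, *Serpinb1a* (-4.19) and *Reck* (-2.05) were lower in the lowest bin and *Slpi* (1.95) was higher. *Lcn2*, itself a secondary granule gene, was lower (-2.31), and the sheddases *Adam19* (3.47) and *Adam8* (1.65) were higher. Of the 10 immediate-early genes, 7 were higher in the lowest bin.

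**Figure D3:**
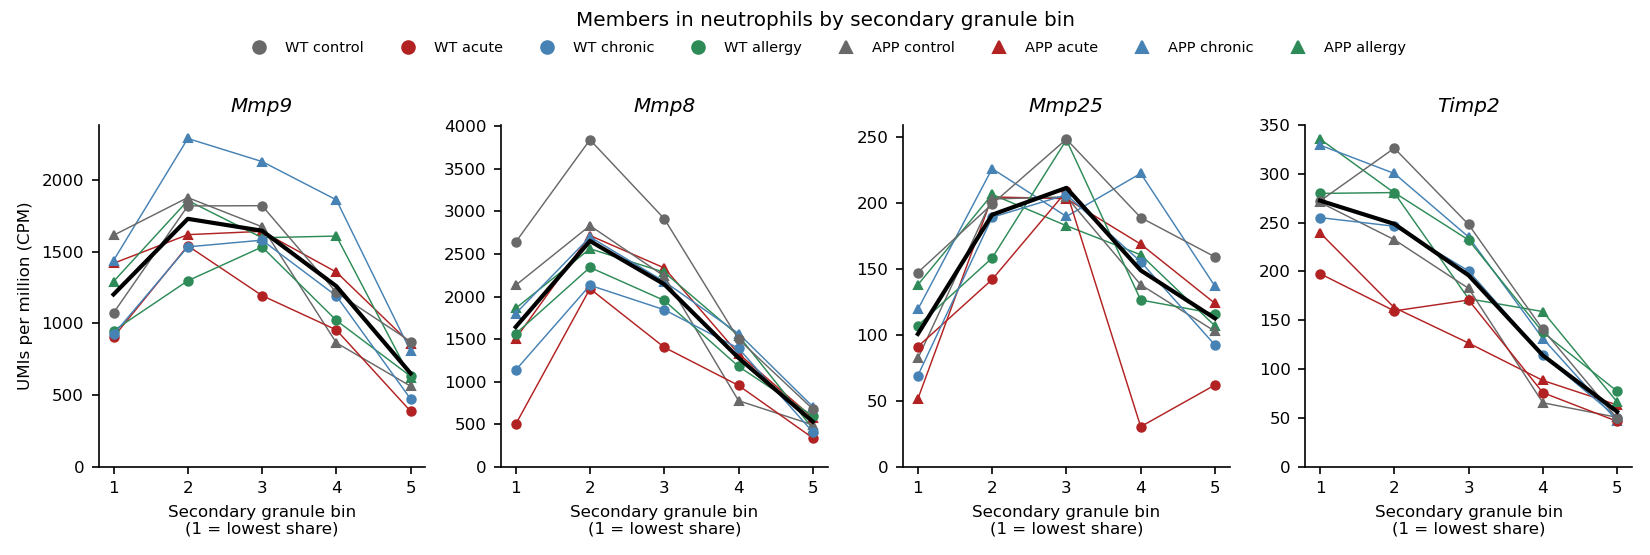
Level of 4 members in neutrophils by secondary granule bin, in CPM on axes that start at 0; thin lines are libraries (circles WT, triangles APP, colours for treatment) and the thick line is the mean over the 8 libraries. *Mmp9* and *Mmp8* peaked in the second bin (means 1731 and 2653 CPM) and *Timp2* fell from 272 to 56.3 CPM.

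Within APP libraries, neutrophils of different hashtag groups differed in *Mmp9*. In the 4 APP libraries, 7 groups of the low immediate-early set with at least 20 neutrophils had 1362 to 2123 CPM (median 2031), and 8 groups of the high set had 743 to 1119 CPM (median 936). In each APP library every low-set group was above every high-set group. In APP acute the low set was 1 group, hashtag 7, which was called at the lowest cutoff allowed (50 counts). Hashtag 6 of APP allergy, also in the low set, was called at the same cutoff. In WT, all 8 groups with enough neutrophils belonged to the high set, at 733 to 1360 CPM, so the sets cannot be compared there. *Mmp8* and *Mmp25* were split the same way in all 4 APP libraries, with *Mmp8* at 1592 to 2496 CPM in low-set and 841 to 1385 CPM in high-set groups. Of 8335 genes with at least 50 UMIs, 1.69% were above in all 4 libraries in this manner and 4.58% below. *Timp2* was not among them: in APP acute its low-set group, at 101 CPM, was below the high-set groups, at 127 and 136.

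The sets also differed in granule bins and, within bins, in depth. Pooled over APP libraries, median depth in the lowest bin was 2036 UMIs in the low and 1863 in the high set. In the highest bin it was 14864.5 and 10440 UMIs, whereas the ranges over hashtag groups overlapped. In APP libraries 7.38% of the low-set neutrophils and 27.9% of the high-set neutrophils were in the lowest bin. Within each of the 5 bins the mean of *Mmp9* over libraries was higher in the low set: 1902 against 1240 CPM in the lowest bin, 2115 against 1790, 2068 against 1548, 1753 against 1305, and 1337 against 449 CPM in the highest. These means do not pair the sets by library. The lowest bin had 3 low-set and 4 high-set libraries, the second had 4 and 3, and the others had 4 of each. In the highest bin no library overlapped between the sets (883 to 1585 against 360 to 575 CPM), nor in the lowest, whereas in the 3 bins between them they did. Median depth of these neutrophils was 2057 to 12807 UMIs in low-set and 2459 to 11504.5 in high-set groups. With cells thinned to equal depth as before, *Mmp9* was found in 71.1 to 88.9% of neutrophils in low-set groups of APP. In high-set groups of APP the range was 56.2 to 65.2%. The *Mmp8* ranges were 68.5 to 87.2% in low-set and 49.2 to 62.9% in high-set groups. Those of *Mmp25* overlapped, at 15.2 to 20.9% and 9.63 to 16.1%. Beyond these shares the part of depth in the split was not tested, and the hashtag groups cannot be told apart from the sets.

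**Figure D4:**
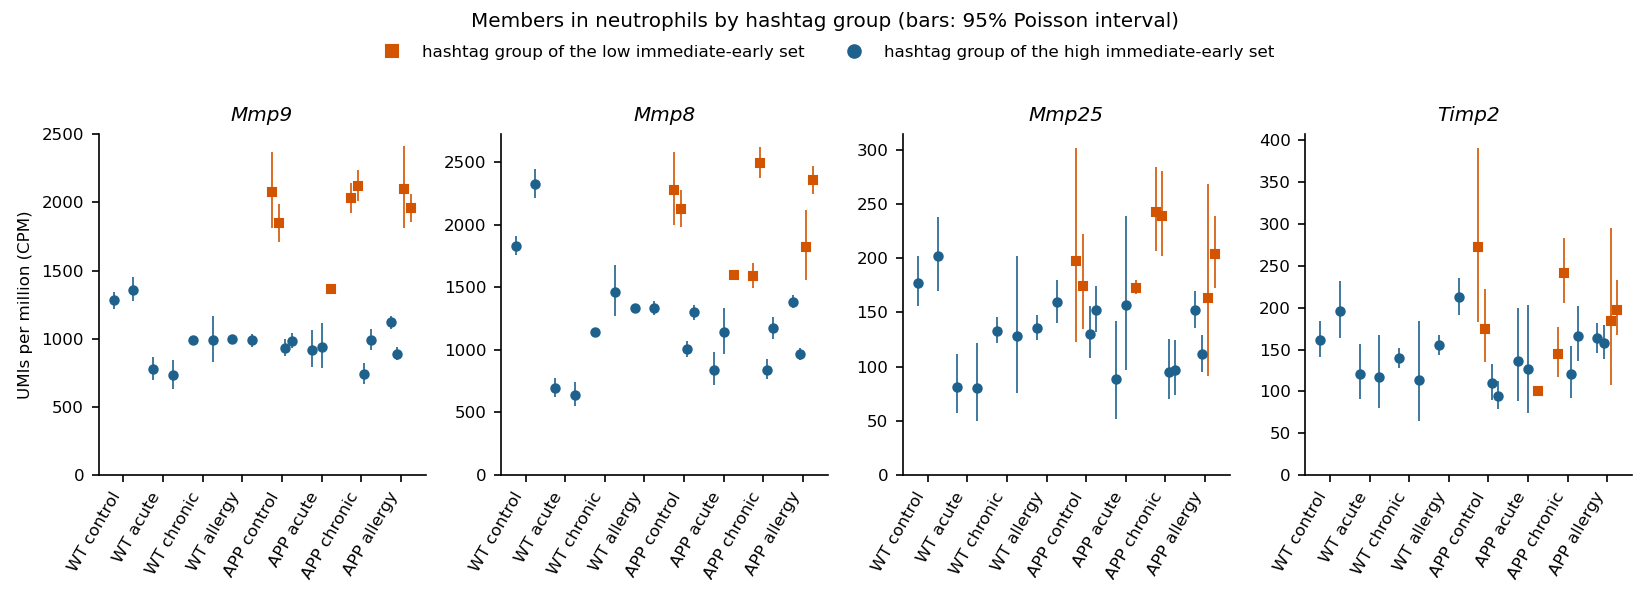
Level of 4 members in neutrophils of each hashtag group with at least 20 neutrophils, in CPM on axes that start at 0, by library; orange squares are groups of the low and blue circles of the high immediate-early set, and bars are exact 95% Poisson intervals of the counts. *Mmp9* in APP libraries was 1362 to 2123 CPM in low-set groups and 743 to 1119 CPM in high-set groups.

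Each treatment was set against the control of its genotype. With 1 library each there is no test, intervals cover counting error only, and a gene is counted where its CPM differed by 2-fold or more. In neutrophils, *Mmp9* was below 2-fold in all 6 contrasts. The log2 ratios were -0.80 (-0.93 to -0.66) in WT acute, -0.41 in WT chronic and -0.43 in WT allergy, and 0.26 (0.21 to 0.32) in APP acute, 0.42 in APP chronic and 0.09 in APP allergy. *Mmp9* was thus lower than control in all 3 WT libraries and higher in all 3 APP libraries. The 3 ratios of a genotype share 1 control library, so their signs are not independent. WT control was the highest of the WT libraries (1310 CPM) and APP control the lowest of the APP libraries (1130 CPM). *Mmp8* (-1.62) and *Mmp25* (-1.13) passed 2-fold in WT acute only, both lower, where 7.74% of genes were lower and 11.3% higher by 2-fold. Granule bins were not matched in these ratios. In WT acute 126 of 207 neutrophils were in the lowest bin, against 31 of 217 in WT control. The part of this mix in the ratios was not tested. No member passed 2-fold in neutrophils of the other 5 contrasts. The shares of all genes higher and lower there were 8.75% and 5.68% in WT chronic, 6.82% and 1.51% in WT allergy, 3.34% and 7.36% in APP acute, 1.88% and 1.71% in APP chronic, and 1.19% and 1.09% in APP allergy.

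Within 1 set of hashtag groups the APP acute values were different. In the low set, *Mmp9* was 1362 CPM in 1203 neutrophils of APP acute, all from 1 hashtag group, and 1898 CPM in 162 neutrophils of APP control, a log2 ratio of -0.48 (-0.57 to -0.38). That group, hashtag 7, was called at the lowest cutoff allowed (50 counts) and took 3663 of the 7199 cells of APP acute. No cutoff was found there for hashtag 6, which marked 0 cells. In the high set *Mmp9* was 928 and 964 CPM, a ratio of -0.0550 (-0.23 to 0.12). *Mmp8* and *Mmp25*, at 0.23 and 0.20 over all neutrophils of APP acute, likewise stood below 0 within each set, at -0.43 and -0.0546 in the low and -0.29 and -0.29 in the high set. The ratio over all neutrophils (0.26) was thus higher than in either set, and the low set was most of the neutrophils in APP acute. For APP chronic the ratio was 0.13 in the low and -0.13 in the high set. *Timp2* stood at -0.96 (-1.26 to -0.65) in the low set of APP acute and at 0.40 (-0.11 to 0.87) in the high set. In WT acute, the high set alone gave -0.78 for *Mmp9*, -1.57 for *Mmp8* and -1.20 for *Mmp25*.

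In macrophages, *Mmp9* was higher with acute colitis in both genotypes. It was 118 CPM in WT acute against 31.5 in WT control (203 and 15 UMIs; log2 ratio 1.91, 1.15 to 2.77), and 162 CPM in APP acute against 21.1 in APP control (149 and 14 UMIs; 2.94, 2.15 to 3.85). Chronic colitis and allergy libraries had 19.4 to 56.2 CPM. By 2-fold, 5.69% of genes were higher in macrophages of WT acute and 1.95% in APP acute, where 1.53% were lower. A UMI was found in 24.5% of macrophages in WT acute and 26.1% in APP acute, against 3.91 to 13.6% in the other libraries, with medians of 2306 to 3664 UMIs. Every acute hashtag group (76.0 to 226 CPM, 4 groups) was above every control group (0 to 37.8 CPM, 5 groups), as 3.6% of genes were in both genotypes (2.2% below). A chronic group, at 78.2 CPM, lay above the lowest acute group.

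The part of neutrophil RNA in the *Mmp9* of macrophages was not tested. The 8 neutrophil markers summed to 203 CPM in macrophages of WT acute against 69.3 in WT control. In APP acute they summed to 489 CPM against 190 in APP control. They were highest in WT chronic (5286 CPM) and APP allergy (3253 CPM), where *Mmp9* was 48.3 and 34.2 CPM. In macrophages without a UMI of *S100a8*, *S100a9* or *Retnlg*, a selection added after the levels were seen, *Mmp9* was 119 CPM in WT acute against 25.3 in WT control. In APP acute it was 185 against 18.7 CPM. *Mmp8* had 0 UMIs in these selected macrophages of APP acute.

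*Mmp12* varied among macrophage libraries without one direction. It was below control by 2-fold in WT acute (-1.72, -2.36 to -1.07) and WT allergy (-2.23, -3.17 to -1.37), where 2.83% and 2.43% of genes were lower (2.27% higher in WT allergy). It was above control in APP chronic (205 against 37.7 CPM; 2.45, 1.80 to 3.14), where 0.474% of genes were higher and 1.8% lower. In macrophages without the 3 neutrophil transcripts, APP chronic had 63.9 CPM and APP control 49.8, a difference under 2-fold. Hashtag groups of a single library ranged from 6.69 to 137 CPM in WT control and from 0 to 346 in APP control, where the highest was the only low-set group. Between high-set macrophages alone, the ratio was 4.22 (3.13 to 5.58) in APP chronic and 2.47 (1.33 to 3.84) in APP acute, which was under 2-fold over all macrophages (0.74). At clustering resolution 1.0, where 72 cells with microglia markers formed a cluster of their own, 22 of them from APP control and 7 each from APP acute and APP chronic, the ratio was 2.49 in APP acute and 4.23 in APP chronic. *Timp2* in macrophages was 355 CPM in WT acute against 218 in WT control, and 371 in APP acute against 252 in APP control, ratios of 0.70 and 0.56 that stayed under 2-fold. In macrophages of WT chronic and APP allergy no member passed 2-fold. Of all genes, 3.12% were higher and 4.12% lower in WT chronic, and 1.43% and 1.65% in APP allergy.

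**Figure D5:**
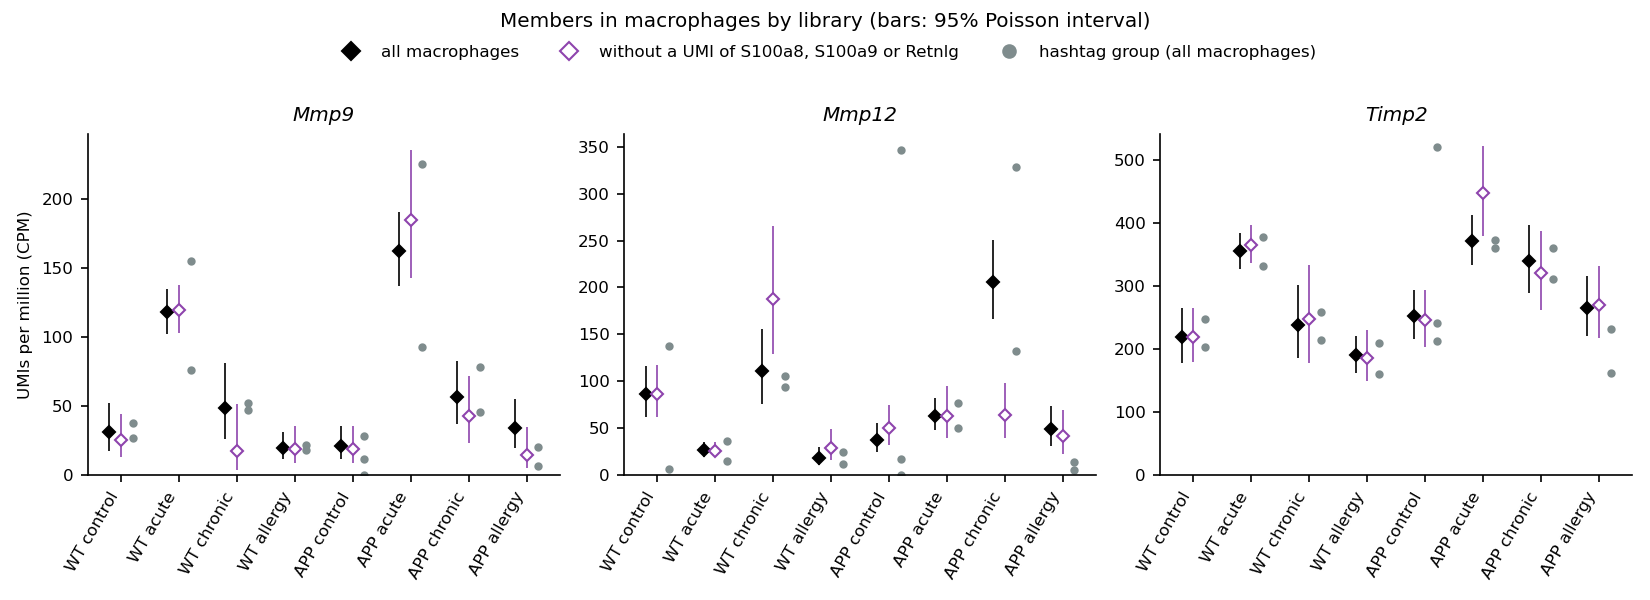
Level of 3 members in macrophages by library, in CPM on axes that start at 0; black diamonds are all macrophages, open diamonds macrophages without a UMI of *S100a8*, *S100a9* or *Retnlg*, both with exact 95% Poisson intervals, and grey points are hashtag groups of at least 20 cells. *Mmp9* was 118 CPM in WT acute and 162 CPM in APP acute, above the 19.4 to 56.2 CPM of the other 6 libraries, and *Mmp12* differed widely between hashtag groups.

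Genotype was compared over 4 WT and 4 APP libraries with treatment as block. In neutrophils no gene of 8047 was called by edgeR (0% of genes); 614 had an unadjusted p under 0.05, and DESeq2 called 27. No member was called. *Mmp9* was 0.61 higher in APP (SE 0.28, edgeR adjusted p = 0.653), with APP above WT in 3 of 4 treatments. Most WT neutrophils were in high-set hashtag groups, though in WT allergy these were 801 of 1064. In high-set cells alone *Mmp9* stood at 0.0574, *Mmp8* at -0.0195 and *Mmp25* at -0.0280. In macrophages 4 of 6298 genes were higher (0.0635%) and 35 lower (0.556%) in APP, 0.619% in all, and none was a member. Of the 10 immediate-early genes 5 were lower in APP macrophages, among them *Fosb* (-1.19) and *Egr1* (-0.76). *Timp2* had the lowest p among members, at 0.28 (SE 0.13, edgeR adjusted p = 0.525). *Mmp12* (0.59, adjusted p = 0.762) was called higher in APP only without WT control (1.12, adjusted p = 0.0174) or without APP control (1.12, adjusted p = 0.0218).

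The genes most like *Mmp9* over the 21 gated cell types (Pearson correlation of mean log2 CPM, 15309 genes) were *Cstdc4* (0.87), *Retnlg* (0.86), *Stfa2l1* (0.86), *Csf3* (0.85) and *Stfa1* (0.84). *Retnlg* is a neutrophil marker used for the gate, *Csf3* encodes the growth factor G-CSF, and *Cstdc4*, *Stfa1* and *Stfa2l1* encode stefins, inhibitors of cysteine proteases. Among the members, *Mmp9* correlated with *Mmp8* at 0.60, *Timp2* at 0.46 and *Timp1* at 0.04, and *Timp1* with *Timp3* at 0.90. These values describe 21 cell types that share libraries and the scale of depth.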

How the data were processed

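The 8 libraries of mouse brain CD45.2+ cells were deposited as raw UMI counts per gene and barcode, with 4 hashtag counts. Per the methods and the submitters' processing notes, the authors aligned reads to mm10 and counted them with Cell Ranger 6.1.2, whereas the matrix headers give version 4. A barcode was called a cell by an order-of-magnitude cutoff or, from 500 UMIs up, by a test of its profile against free RNA (FDR 0.01). Cells under 200 genes or above 5% mitochondrial UMIs were dropped. Cells were clustered over all libraries (scanpy 1.11.5, leidenalg 0.10.2, Leiden resolution 0.5, Python 3.11.15), clusters were named from marker lists that hold none of the 8 genes, and a cell entered its type with at least 2 markers and at most 1 hashtag. Cells with several hashtags were taken as doublets. The gate held 84.9% of the *Mmp9* UMIs of called cells and 53.7% of those of *Timp3*, and the rest lay in cells with several hashtags (8570 of 8720 outside UMIs for *Mmp9*, 116 of 323 for *Timp3*), with few markers or of no named type (134 for *Timp3*). Between any pair of libraries, 0.6 to 1.3% of cells shared a barcode.

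UMIs were summed per library and type (at least 20 cells, or 10 in a bin). Cell types, bins and genotypes were tested with edgeR 4.0.16 (TMM, filterByExpr, quasi-likelihood test, R 4.3.3), with DESeq2 1.42.0 as an alternative, at adjusted p under 0.05. Where 1 library stood per condition, CPM ratios were given with exact 95% intervals, which cover counting error only, and a gene counted as changed at 2-fold among those with at least 50 UMIs. Per-library depth was 25621465 to 54618574 UMIs in cells. For depth-matched shares of positive cells, each cell was thinned to 1000 UMIs and shallower cells were left out. On simulated counts the test recovered 51.9% of 2-fold changes for neutrophils against monocytes (11174 genes) and 51.9% for the bins (4897 genes). For genotype it recovered 16.5% in neutrophils (7847 genes) and 11.8% in macrophages (6509 genes), and 4-fold changes were recovered at 100%, 100%, 89.3% and 94.0%. Of the calls, 6.62%, 1.97%, 1.23% and 2.25% were false. The simulation gave all groups the same mean profile before the change and a fixed spread. Genes with few expected counts were not among those changed, so the rates do not cover members with few UMIs.

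The members, lists, gates and tests were chosen with earlier results of these data known. Named were the 8 members, the 5 genes most correlated with *Mmp9*, and up to 3 called genes per list and contrast by size of change. The sets of hashtag groups were defined from these data and are not groups of the study. Scrublet's own threshold marked almost no cell, so that alternative removed the highest-scoring 3.9 to 5.8% of cells per library. Alternatives also changed cell calling, filters, gates, clustering, ambient correction, scaling and libraries.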

Additional observations from a re-analysis of the deposited data

Results flagged for a closer look

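Values are given here without an explanation, since none was tested. Of 42 groups of libraries examined, 8 held a library far from the others. Chance also gives such libraries, at a rate that was not worked out for levels on few UMIs. In WT allergy, *Mmp9* was 253 CPM in basophils (next library 57.1) and 139 CPM in fibroblasts (next 7.96), and *Mmp8* was 388 CPM in basophils (next 47.3). Neutrophil markers were high in the same sums (28145 CPM in basophils and 29965 in fibroblasts). In APP chronic, *Mmp9* was 77.5 CPM in type 1 conventional dendritic cells, with all 181 UMIs in 1 cell, and *Timp2* there was 8.57 CPM. In neutrophil precursors, *Mmp9* was 10.5 CPM in APP acute (83 UMIs in 7 cells) and *Timp2* 5.90 CPM in WT allergy. *Mmp25* in ILC2 was 20.2 CPM in WT control.

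The treatment ratio had opposite signs in WT and APP for several genes, and the difference was not tested, with 1 library per condition. In neutrophils with acute colitis, the APP log2 ratio minus the WT log2 ratio was 1.06 for *Mmp9*, 1.85 for *Mmp8* and 1.33 for *Mmp25*. With chronic colitis it was 0.83 for *Mmp9*, 1.01 for *Mmp8*, 0.70 for *Mmp25* and 0.87 for *Timp2*, and with allergy 0.52 for *Mmp9* and 0.69 for *Mmp8*. In macrophages with acute colitis it was 2.46 for *Mmp12*. Within high-set neutrophils, which both genotypes held, the acute ratios of WT and APP were -0.78 and -0.0550 for *Mmp9*, -1.57 and -0.29 for *Mmp8*, and -1.20 and -0.29 for *Mmp25*, with no opposite sign. The same held there with chronic colitis, at -0.40 and -0.13 for *Mmp9*, -0.79 and -0.21 for *Mmp8* and -0.48 and -0.58 for *Mmp25*. *Timp2* with chronic colitis (-0.32 and 0.54), *Mmp9* with allergy (-0.39 and 0.0821), *Mmp8* with allergy (-0.59 and 0.0264) and *Mmp12* in high-set macrophages with acute colitis (-1.82 and 2.47) kept opposite signs.

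Cells that no comparison used also held UMIs of the 8 genes. A cluster of 71 cells led by *Ttr*, *Enpp2*, *Kl* and *Folr1* had 243 CPM of *Timp2*, 194 of *Timp3*, 23.3 of *Mmp14*, 11.7 of *Mmp8* and 7.29 of *Mmp9*, all above the highest library of B cells. A cluster of 374 cells had 9.90 CPM of *Mmp9* on 12 UMIs. In a cluster shared by 2 types of dendritic cells, 78 shallow cells that matched both equally (median 664.5 UMIs) had 53.5 CPM of *Mmp14* on 5 UMIs and 64.2 of *Timp2* on 6.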

How the results depend on the processing

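Depth limited the genes with few UMIs, *Mmp12*, *Timp1* and *Timp3* in neutrophils above all, and 1 library per condition left the treatment comparisons without a test. No paired analysis was possible by replicate number because each group holds only replicate 1, and the fits blocked on library or treatment. The number of members called in either direction kept within 1.5 times under the alternatives run, with these exceptions. In the low immediate-early set, members called were 4 for neutrophils against monocytes (7 in all cells), 2 for macrophages against monocytes (6), 4 for neutrophils against precursors (8) and 0 for treatment against control (7 pairs of gene and contrast), with fewer cells and libraries. Leaving out 1 library at a time gave 5 to 7 members for neutrophils against monocytes, 5 to 7 against macrophages, 7 to 8 against precursors, 5 to 6 for macrophages against monocytes, 6 for fibroblasts, 3 to 4 for the bins, 0 for genotype in neutrophils and 0 to 1 in macrophages. Of tested single values under an alternative, 984 kept direction and call, 41 lost the call, 15 gained one and 32 turned sign. Of untested treatment ratios, 388 stayed within their counting interval, 16 of them with another sign, and 82 moved beyond it, 22 of them with another sign. Those with another sign include *Mmp9* and *Mmp8* in neutrophils of APP acute, at -0.44 and -0.49 by the mean over hashtag groups, *Mmp12* in macrophages of APP acute (-0.93 by the same mean) and *Mmp14* in macrophages of APP allergy (-2.19 in the low set).

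Signs of tested values turned as follows, and the cause was not tested. *Mmp12* in neutrophils against monocytes was -3.05 with order-of-magnitude cell calls, -0.15 with several hashtags kept, -0.66 with Scrublet, -1.94 with DESeq2, -0.78 without WT chronic and -0.34 without WT allergy (-0.78 to 2.51 over the libraries left out in turn). Against macrophages, *Timp2* was -0.0176 with size factors and -0.0112 with DESeq2, and *Timp3* -0.17 with DESeq2. In macrophages against monocytes, *Mmp25* was -0.38 in the low set and *Timp1* 0.97 without WT control (-1.31 to 0.97 over the libraries). *Mmp14* against precursors was -0.62 in the low set. In fibroblasts against macrophages, *Mmp8* was -2.03 without WT allergy (-2.03 to 2.88 over the libraries), and *Mmp25* 0.42 with several hashtags kept, 0.22 with every cell and 0.0853 without WT acute (-5.42 to 0.0853). Over the bins, *Mmp25* was 0.47 with order-of-magnitude cell calls, 0.16 in the low set and 0.22 with 3 bins. For genotype in neutrophils, the high set gave -0.0195 for *Mmp8*, -0.0280 for *Mmp25* and -0.0575 for *Timp2*, and *Timp2* was -0.11 with order-of-magnitude cell calls and -0.00419 at resolution 1.0. In macrophages, order-of-magnitude cell calls gave -0.88 for *Mmp9*, and *Mmp14* was 0.15 with those calls, 0.00789 with several hashtags kept, 0.0241 with Scrublet, 0.0644 at resolution 1.0, 0.0288 with DESeq2 and 0.29 without WT acute or without APP acute (-0.16 to 0.29).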

Other observations

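At clustering resolution 1.0 a cluster of 72 gated cells separated that carried microglia markers, with *P2ry12* in 50, *Tmem119* in 43 and *Sall1* in 19 of the cells. Its *Timp2* level was 446 CPM (95% interval 368 to 535, counting error only) and its *Mmp12* level 147 CPM (38 UMIs in 5 cells). *Mmp14* had 9 UMIs, and all 11 UMIs of *Mmp9* came from 1 cell. *Mmp25*, *Timp1* and *Timp3* had 0 UMIs, which allows up to 3 of the 257984 UMIs of these cells.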
